A study of Mus musculus with 4 samples.

Results

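The germinal centre to medulla border is the line of spots that the authors named GC_Medulla Border in Visium sections of mouse draining lymph node. In this method a tissue section lies on a grid of spots whose barcoded probes capture its RNA, and each spot is a small area that may hold several cells of different types. Every spot with that region name was taken, 235 of 7271 spots or 3.23%, with 31, 64, 59 and 81 spots in sections A, B, C and D. The 4 sections belong to 1 group, from lymph node of mice collected 14 days after immunization and 3 days after gavage began, cut 10 µm thick and 50 µm apart in depth. They are serial sections that carry 1 sample ID stem, not samples of separate animals by any label. The deposited names of all 4 sections end in eYFP, a label that is not explained there. Strain, genotype, age, antigen, the substance gavaged and the number of animals were not otherwise given in the sources used here. By its title, the series asks about plasma cell differentiation at the interface of dark zone and medulla.

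Plasma cells are the antibody-secreting end stage of the B cell line. Many arise from germinal centres, where activated B cells divide in a dark zone and are selected in a light zone. In lymph nodes they gather in the medulla, whose cords and sinuses lead to the outgoing lymph. They are commonly recognised by Sdc1, a surface proteoglycan, by Jchain, which joins polymeric antibodies, by Xbp1, a transcription factor of the secretory pathway, and by Prdm1 and Irf4, transcription factors of the plasma cell programme. The spot table holds no single genes, so none of these genes was analysed here, and the region name was checked by position and by the deposited score pc_markers, read from its name as a plasma cell marker score. DZ and LZ are read as the dark and light zones, and Mo_GC_vs_Mem as a germinal centre score. The scores Mo_Nr4a1_SC, Mo_Inmt_SC, Mo_Nr4a1Inmt_SC and Mo_CD34_SC are used under their deposited names, which no file explains. Scores have no true zero, so their levels are read only against each other.

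By position the name held in part. All 235 border spots lay 1 array step from a germinal centre spot, and 212 touched at least 1 DZ spot. The Medulla region was touched by 192 of them and not by 43. A neighbour on the T or B side (T zone, B zone, GC_T Border or GC_B Border) was found for 145 spots, of which GC_B Border was met by 73 spots, T zone by 70, GC_T Border by 43 and B zone by 16. The region names followed the deposited clusters: at the finer of 2 deposited clustering resolutions, all 235 border spots and 2126 of 2130 Medulla spots fell in the same cluster, while 158 of 158 GC_T Border spots and 655 of 667 GC_B Border spots fell in 2 others. The differences in level between the 3 borders therefore partly follow the clustering and are given below with no test. The border and nearly all of the Medulla lie within the same cluster, but which spots count as border, Medulla or T and B side neighbours still rests on the authors' naming.

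**Figure D1:**
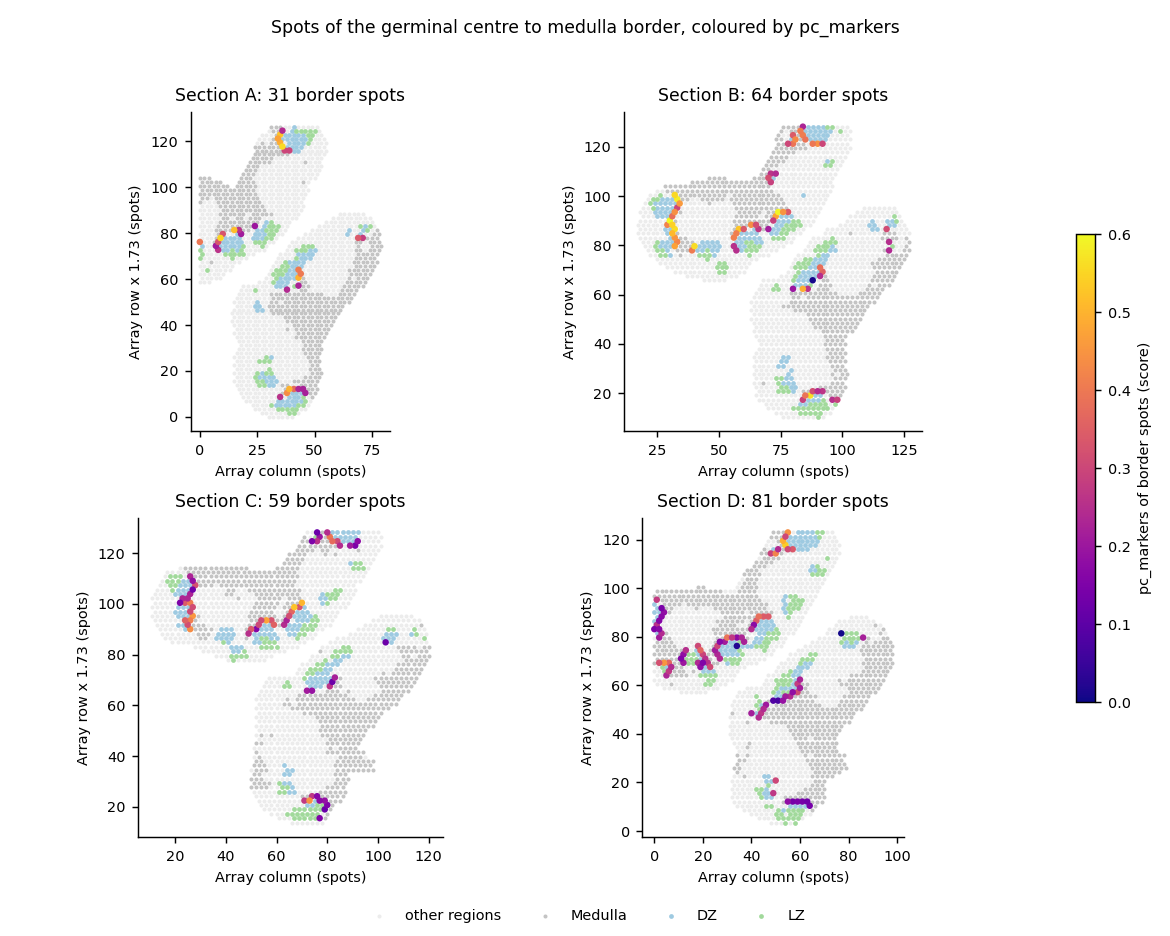
Position of the border spots on the capture array in sections A to D, with array column and scaled array row in spots on the axes. Border spots are coloured by pc_markers (score), and Medulla, DZ, LZ and other regions are shown in pale colours; the 235 border spots lie along germinal centres in both pieces of tissue, 212 of them touching DZ and 192 touching Medulla, in short stretches or as single spots.

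The border was thin, broken and unequally shared between sections. Its spots formed 60 connected stretches, 11, 20, 11 and 18 in sections A to D, of which 20 were single spots, and the longest held 7, 14, 17 and 11 spots. Of 70 connected germinal centre patches, 44 were touched by a border spot, and of the 33 patches with at least 10 spots, 27 were touched. Each section held 2 pieces of tissue. The piece with more spots overall held 72 border spots and the smaller piece 163. A border spot had on average 1.42 ± 0.101 DZ neighbours, 0.174 ± 0.122 LZ neighbours, 1.69 ± 0.0945 Medulla neighbours and 1.52 ± 0.213 neighbours of its own kind (SD over 4 sections), out of 6 for an interior spot. A light zone neighbour was found for 2 of 31, 6 of 64, 9 of 59 and 21 of 81 border spots in sections A to D. Counts of border spots in section A were the lowest, and any mean for that section rests on 31 spots.

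Border spots were shallow, and depth differed between sections. Median UMIs (unique molecular identifiers, the count of captured transcripts) per border spot were 5174, 7159.5, 2613 and 2154 in A to D, against 7726.5, 10528, 3677.5 and 3836 over all spots of the same sections. The median of section B was 3.32 times that of section D, so all differences were taken within sections. Genes per spot, the number of genes with a count, averaged 1932 ± 727 over the sections. The lowest border spots held 1496, 291, 214 and 271 UMIs, and 8 of the 235 had fewer than 1000.

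The border carried a high plasma cell marker score, and its distribution was broad. The mean of pc_markers over border spots was 0.347, 0.371, 0.270 and 0.243 in sections A to D, or 0.308 ± 0.0608 (SD, n = 4), and the deeper sections A and B were above C and D. Of the border spots, 39.1% ± 7.23 were among the 10% of spots with the highest pc_markers in their section, in all 89 of 235, with the lowest share of 28.4% in section D. The same share was 4.74% ± 5.48 in GC_T Border and 0.750% ± 0.598 in GC_B Border. In Medulla it was 27.7% ± 4.003, and 35.3% ± 5.60 in Medulla spots 2 steps from a germinal centre. The SD of pc_markers over the spots of a section averaged 0.109 in the border, 0.106 in Medulla, 0.0487 in GC_T Border and 0.0523 in GC_B Border, larger in the border than in either other border in each section. Border spots ranged from 0.201 to 0.556 in A, from 0.00824 to 0.604 in B, from 0.118 to 0.523 in C and from 0.00619 to 0.538 in D.

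Of the 235 border spots, 0 were among the top 10% of their section in Mo_GC_vs_Mem or in the ribosomal share, and 1 was in UMIs. A count of 0 allows a share of up to 1.28% if spots were independent, which neighbouring spots are not. In Mo_GC_vs_Mem the count was also 0 of 2130 in Medulla and 0 of 158 in GC_T Border, and 25 of 667 in GC_B Border. In the ribosomal share it was 0 of 539 in DZ, 20 of 2130 in Medulla, 2 of 158 in GC_T Border and 50 of 667 in GC_B Border. The shares for the remaining scores were 12.5% ± 2.40 for Mo_Nr4a1_SC, 9.89% ± 1.39 for Mo_Inmt_SC, 7.07% ± 3.03 for Mo_Nr4a1Inmt_SC and 6.41% ± 0.271 for Mo_CD34_SC, the last below 10% in each section. In Medulla they were 28.6%, 30.9%, 31.1% and 29.8% in the same order. In GC_T Border they were 2.73%, 2.19%, 1.61% and 2.05%, and in GC_B Border 1.92%, 0.767%, 0.586% and 0.324%. The mitochondrial share of border spots was in the top 10% for 7 of 235. That count was 529 of 2130 in Medulla, 0 of 158 in GC_T Border and 28 of 667 in GC_B Border. For UMIs it was 13, 11 and 120 in the same order.

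Stretch means varied, but whether they varied beyond the scatter of single spots was not tested. Of the variance of pc_markers over border spots, from 27.7% (section A) to 61.6% (section D) lay between stretches, and for the mitochondrial share from 38.5% (A) to 83.6% (B). Small stretches put part of the variance between them even where they do not differ. Section A had 11 stretches over 31 spots, 5 of them single spots. The share from this alone was not computed, so its values cannot be read as a difference between stretches. Among stretches of at least 4 spots, the mean pc_markers ran from 0.144 to 0.402 in section D and from 0.276 to 0.478 in section B. In section B the mean mitochondrial share of such stretches ran from 2.44% to 5.91%. Spots of a stretch are neighbours and are not independent of each other.

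Read from the dark zone outwards, the border already had medullary depth and medullary pc_markers, while its mitochondrial share lay near the middle. The layers on its sides were the 173 DZ spots touching the medulla side and the 295 Medulla spots 2 steps from a germinal centre. Mean UMIs were 7761 ± 3316 in the DZ layer, 4686 ± 2598 in the border and 4568 ± 2604 in the Medulla layer. On a scale with the Medulla layer at 0% and the DZ layer at 100%, the border stood at 3.77% ± 1.54 in UMIs and 5.07% ± 1.68 in genes. It stood at 12.6% ± 1.59 in Mo_GC_vs_Mem, 21.5% ± 7.07 in Mo_CD34_SC, 23.4% ± 6.71 in Mo_Inmt_SC, 27.3% ± 4.26 in Mo_Nr4a1Inmt_SC and 28.2% ± 12.02 in Mo_Nr4a1_SC. In the mitochondrial share it stood at 53.8% ± 10.6, with 43.1%, 46.6%, 65.6% and 59.8% in sections A to D. For each of these 8 measures the border lay between its sides in 4 of 4 sections. The score pc_markers was between the sides in 2 sections (B and D) and above both in 2 (A and C), and the ribosomal share was between them in 2 and below both in 2. The border minus the Medulla layer in pc_markers was 0.00916, with 2 sections on either side of 0. It was 0.0413 over border spots with no T or B side neighbour, 0.0175 with medians over spots and 0.0289 against all Medulla spots, each above 0 in 4 of 4 sections, and -0.00231 in the larger of the tissue pieces. These positions describe mixtures of cells in a spot as well as levels in cells, and the 2 cannot be told apart.

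**Figure D2:**
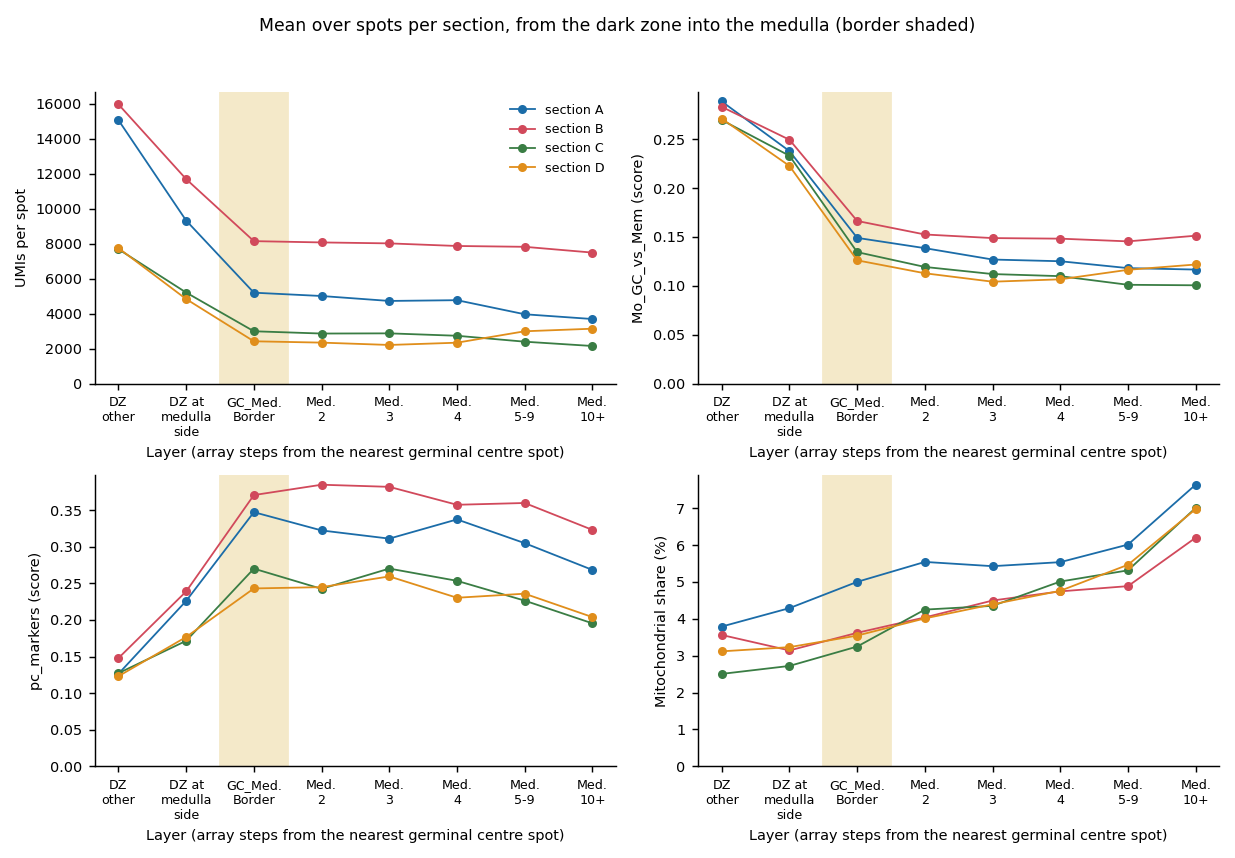
Mean over spots per section (1 line per section) of UMIs per spot, Mo_GC_vs_Mem, pc_markers and the mitochondrial share, from DZ spots away from the medulla, through DZ spots touching it and the border (shaded), to Medulla spots at 2, 3, 4, 5 to 9 and 10 or more array steps. UMIs and Mo_GC_vs_Mem are high in DZ and low from the border on, pc_markers is higher from the border on than in DZ, and the mitochondrial share is higher with each layer of the medulla, 3.86% at the border and 6.96% at 10 or more steps on average.

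The mitochondrial share of border spots was 5.00%, 3.62%, 3.25% and 3.55% in sections A to D, or 3.86% ± 0.782. It was lower than in the Medulla spots behind it: the differences were -0.541, -0.417, -1.002 and -0.465 percentage points, a mean of -0.606 ± 0.268 with 4 of 4 sections below 0. Against all Medulla spots the difference was -1.72. The Medulla share was 4.46% ± 0.729 at 2 steps, 5.42% ± 0.465 at 5 to 9 steps and 6.96% ± 0.589 at 10 or more. In the dark zone it was 3.25% ± 0.565 away from the medulla side and 3.35% ± 0.667 next to it.

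The germinal centre score went the other way. Mo_GC_vs_Mem in the border exceeded the Medulla layer by 0.0105, 0.0138, 0.0152 and 0.0133, a mean of 0.0132 ± 0.00195 with 4 of 4 sections above 0. The difference was 0.00695 over border spots with no T or B side neighbour, above 0 in 3 of 4 sections. The other borders had such a step too, against T zone and B zone spots 2 steps out. It was 0.0114 ± 0.00458 at GC_T Border and 0.00912 ± 0.00365 at GC_B Border, above 0 in 4 of 4 sections each. The medulla step minus the T side step was 0.00183 ± 0.00402, above 0 in 3 of 4. UMIs exceeded the Medulla layer by 118 ± 54.7 and genes by 51.3 ± 12.7, in 4 of 4 sections each, but in 3 of 4 with medians over spots. Without the spots that have a T or B side neighbour these differences were -86.7 UMIs, above 0 in 2 of 4 sections, and -88.4 genes, above 0 in 1 of 4.

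All 4 SC scores were lower in the border than in the Medulla layer, each in 4 of 4 sections. The differences were -0.00790 ± 0.00272 for Mo_Nr4a1_SC, -0.0102 ± 0.00321 for Mo_Inmt_SC, -0.0110 ± 0.00202 for Mo_Nr4a1Inmt_SC and -0.00881 ± 0.00347 for Mo_CD34_SC. Over border spots with no T or B side neighbour Mo_Nr4a1_SC differed by -0.00448, below 0 in 3 of 4 sections, and in the larger piece Mo_CD34_SC by -0.00573, also in 3 of 4. The ribosomal share had no shared direction, with -0.615, 1.04, -1.31 and 0.825 percentage points in A to D. The step into the medulla thus had the same direction in all sections for 8 of 10 measures. With 4 sections the smallest p of the exact two-sided sign-flip permutation test is 0.125, which was the p of each of these 8 (adjusted p 0.284 over all 50 tests), so no comparison could pass 0.05 and the number of sections with a direction is given in its place. The sections are serial, so their spread may be technical.

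**Figure D3:**
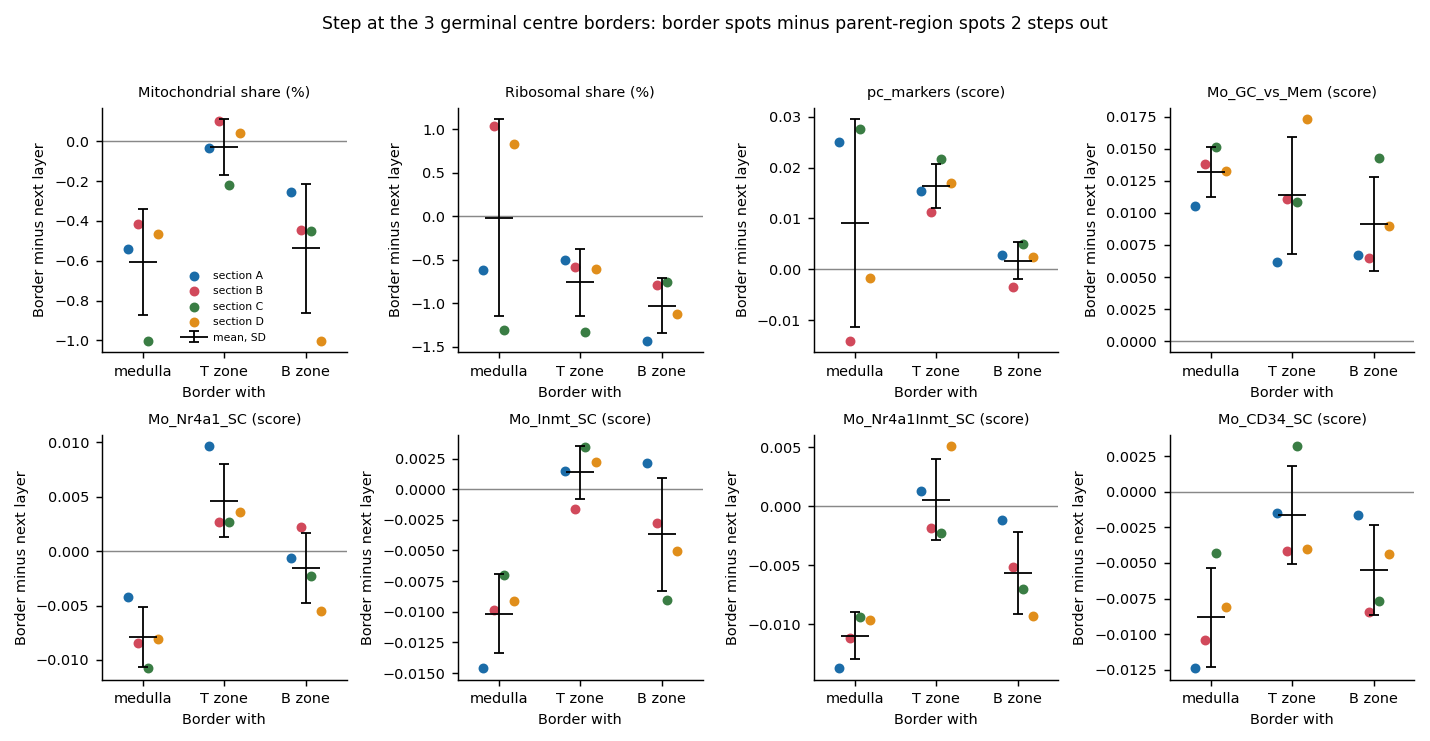
Difference between border spots and spots of the parent region 2 array steps out (Medulla, T zone or B zone), per section (points) with mean and SD over 4 sections (bars), for the mitochondrial and ribosomal shares in percentage points and the 6 scores. At the medulla the 4 SC scores and the mitochondrial share are below 0 in each section, while at the T zone the mitochondrial share straddles 0 and Mo_Nr4a1_SC is above it in each section. At the B zone the mitochondrial share, Mo_Nr4a1Inmt_SC and Mo_CD34_SC are also below 0 in each section.

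The same step was taken at the other germinal centre borders, against T zone and B zone spots 2 steps out, and the difference between steps was tested. The medulla step minus the T side step in the mitochondrial share was -0.505, -0.522, -0.781 and -0.507 percentage points, a mean of -0.579 ± 0.135. The T side step itself was -0.0275 ± 0.141, below 0 in 2 of 4 sections. The 4 SC scores differed in the same way, by -0.0125 ± 0.00134 for Mo_Nr4a1_SC, -0.0115 ± 0.00332 for Mo_Inmt_SC, -0.0115 ± 0.00398 for Mo_Nr4a1Inmt_SC and -0.00718 ± 0.00284 for Mo_CD34_SC. Each of these 5 differences was below 0 in 4 of 4 sections (exact sign-flip permutation p = 0.125, adjusted p 0.284). In the larger tissue piece alone, Mo_CD34_SC differed by -0.00420, below 0 in 2 of 4 sections, and the mitochondrial share and Mo_Inmt_SC were below 0 in 3 of 4. Mo_Nr4a1_SC was lower in the medulla border than behind it but higher in GC_T Border than in the T zone behind it, by 0.00465 ± 0.00337 in 4 of 4 sections. The score pc_markers had no shared direction in the difference of steps, -0.00715 ± 0.0175, although its T side step was 0.0163 ± 0.00435 in 4 of 4 sections.

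Against the B side, 3 measures had a shared direction in the difference of steps. The mitochondrial step at GC_B Border was -0.538 ± 0.323, below 0 in 4 of 4 sections, and the medulla step differed from it by -0.0679 ± 0.468 with 2 sections on either side of 0. Mo_Nr4a1_SC differed by -0.00635 ± 0.00386 and Mo_Nr4a1Inmt_SC by -0.00530 ± 0.00543, below 0 in 4 of 4 sections, though in section D the latter was -0.000264 and with medians over spots it was below 0 in 2 of 4. Mo_GC_vs_Mem differed by 0.00408 ± 0.00266, above 0 in 4 of 4, and by -0.00125 once each score was taken as the residual of a linear fit on log10 UMIs. These 3 had the smallest p that the exact sign-flip permutation test can give. At GC_B Border the step was -0.00567 ± 0.00347 for Mo_Nr4a1Inmt_SC and -0.00553 ± 0.00315 for Mo_CD34_SC, each below 0 in 4 of 4 sections. For Mo_Inmt_SC and Mo_Nr4a1_SC it was -0.00369 ± 0.00464 and -0.00155 ± 0.00323, below 0 in 3 of 4. The medulla step differed from it by -0.00647 ± 0.00781 for Mo_Inmt_SC and -0.00328 ± 0.00585 for Mo_CD34_SC, below 0 in 3 of 4. The ribosomal step was -0.760 ± 0.385 at the T side and -1.03 ± 0.320 at the B side, below 0 in 4 of 4 sections each, and its difference to the medulla step was mixed in both cases.

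In level, the medulla border was the poorest of the 3 borders in UMIs, genes and ribosomal share and the richest in pc_markers. UMIs per spot differed from GC_T Border by -2565 ± 1253 and from GC_B Border by -3923 ± 1393, and genes by -844 ± 239 and -1038 ± 255. The ribosomal share was 19.0%, 17.4%, 16.6% and 17.2% in sections A to D, against 22.0% ± 2.62 in GC_T Border and 22.8% ± 2.05 in GC_B Border, and its section means overlapped neither of theirs. The differences were -4.44 ± 1.75 and -5.25 ± 1.19 percentage points. The score pc_markers was higher by 0.0799 ± 0.0434 against GC_T Border (0.105, 0.125, 0.0612 and 0.0284 in A to D) and by 0.147 ± 0.0443 against GC_B Border (0.180, 0.189, 0.120 and 0.0992). All these held their direction in 4 of 4 sections. In the larger piece the difference in pc_markers to GC_T Border was 0.0368, above 0 in 3 of 4.

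The SC scores of the medulla border were above those of both other borders in 4 of 4 sections. The differences to GC_T Border and GC_B Border were 0.0154 ± 0.00735 and 0.0170 ± 0.00728 for Mo_Nr4a1_SC, and 0.0215 ± 0.00652 and 0.0239 ± 0.00337 for Mo_Inmt_SC. They were 0.0150 ± 0.00539 and 0.0169 ± 0.00282 for Mo_Nr4a1Inmt_SC, and 0.00886 ± 0.00505 and 0.0273 ± 0.00296 for Mo_CD34_SC. On residuals of log10 UMIs these differences were smaller, at 0.00882, 0.00977, 0.00577 and -0.000792 to GC_T Border and 0.00870, 0.00884, 0.00498 and 0.0149 to GC_B Border, in the order in which the scores are named. Mo_Nr4a1Inmt_SC was then above 0 in 3 of 4 sections against either border, and Mo_CD34_SC in 1 of 4 against GC_T Border. Mo_GC_vs_Mem differed from GC_T Border by -0.0230 ± 0.00970 and from GC_B Border by -0.0533 ± 0.0123, below 0 in 4 of 4 sections each. On residuals of log10 UMIs the first of these was 0.00920 and the second -0.0111, so the order of the medulla and T borders in this score was the opposite once depth was fitted.

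The mitochondrial share did not separate the medulla border from the T border, at 0.0989 ± 0.275 percentage points with 2 sections on either side of 0. The difference to GC_B Border was -0.580 ± 0.400, below 0 in 4 of 4 sections. By tissue piece, the difference to GC_T Border was 0.847 in the larger piece and -0.246 in the smaller, and that to GC_B Border was 0.152 in the larger piece.

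Within the border, spots with more DZ neighbours had a lower mitochondrial share. The slope per DZ neighbour was -0.130, -0.618, -0.796 and -0.558 percentage points in sections A to D, a mean of -0.525 ± 0.282 with 4 of 4 below 0 (exact sign-flip permutation p = 0.125, adjusted p 0.284). By number of DZ neighbours the share was 5.47% ± 0.895 with 0 (23 spots), 3.84% ± 0.827 with 1 (114 spots), 3.54% ± 0.966 with 2 (79 spots) and 3.49% ± 1.12 with 3 or more (19 spots). All 23 spots without a DZ neighbour touch a light zone spot instead. Without the border spots that have an LZ neighbour the slope was -0.163, still below 0 in 4 of 4 sections. It was -0.747 in the larger tissue piece and -0.237 in the smaller, there below 0 in 3 of 4, and the share with 3 or more DZ neighbours minus that with 1 was -0.352, also in 3 of 4. The same slope was -0.0250 ± 0.0879 in GC_T Border and -0.636 ± 0.177 in GC_B Border. The difference to GC_T Border was -0.5005 ± 0.313, below 0 in 4 of 4 sections, and that to GC_B Border was 0.110 ± 0.194, above 0 in 3 of 4.

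The plasma cell marker score tended to be higher in border spots with more Medulla neighbours, but it did not rise steadily. Its slope per Medulla neighbour was 0.00446, 0.0179, 0.0155 and 0.0150 in sections A to D, a mean of 0.0132 ± 0.00597 with 4 of 4 above 0. In the smaller tissue piece it was 0.0233 and in the larger -0.0104. By number of Medulla neighbours pc_markers was 0.277 with 0, 0.296 with 1, 0.323 with 2 and 0.312 with 3. In section A it was lower with 3 than with 0, at 0.315 against 0.358, and in B to D it was higher. Its slope per DZ neighbour was 0.0124 ± 0.0111, above 0 in 3 of 4 sections, and -0.00238 without the spots that touch the light zone. In a fit with both counts, the slope per DZ neighbour was 0.0295 ± 0.0161 and that per Medulla neighbour 0.0260 ± 0.00802, each above 0 in 4 of 4 sections. That fit kept the spots that touch the light zone. With no DZ neighbour pc_markers was 0.213 ± 0.0375, and with 1, 2 and 3 or more it was 0.323 ± 0.0563, 0.309 ± 0.0706 and 0.305 ± 0.0570. These SDs hold the differences in level between sections. From 1 to 2 neighbours pc_markers went from 0.343 to 0.366 in section A and from 0.388 to 0.373 in B. In C it went from 0.302 to 0.260 and in D from 0.257 to 0.238. The means by DZ neighbours are not matched for Medulla neighbours, and the spots with no DZ neighbour all touch the light zone. In GC_B Border the slope of pc_markers per DZ neighbour was 0.0266 ± 0.00371, and 0.0212 ± 0.00262 with B zone neighbours in the fit. Both were above 0 in 4 of 4 sections. In GC_T Border the slope alone was 0.00827 ± 0.0131, above 0 in 3 of 4. The slope alone in the medulla border minus that in GC_B Border was -0.0142 ± 0.0139, below 0 in 4 of 4.

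Because a spot has 6 neighbours, a high count of any kind limits the others: no border spot with 3 or more DZ neighbours had more than 1 Medulla neighbour. At exactly 2 Medulla neighbours and without LZ contact, 42 spots with 2 DZ neighbours were compared with 33 spots with 1. Their pc_markers differed by 0.0870, 0.0953, -0.0172 and 0.0403 in A to D, a mean of 0.0513 ± 0.0517 with 3 of 4 above 0, and their ribosomal share by -1.20 ± 0.689 percentage points, below 0 in 4 of 4 sections.

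The ribosomal share was lower in border spots with more Medulla neighbours. The slope was -0.747, -0.959, -0.520 and -0.518 percentage points per Medulla neighbour, a mean of -0.686 ± 0.211 with 4 of 4 below 0, and 0.0361 in the larger tissue piece alone. The share was 18.7% ± 1.51 with no Medulla neighbour and 16.7% ± 1.67 with 3. Its slope per DZ neighbour was -0.229 ± 0.305, below 0 in 4 of 4, but 0.291 without the LZ contact spots and 0.629 in the smaller piece. Mo_GC_vs_Mem had a slope of -0.00522 ± 0.00425 per Medulla neighbour, below 0 in 4 of 4 sections and 0.00190 in the larger piece, and Mo_Inmt_SC one of 0.00395 ± 0.00351, above 0 in 4 of 4 but 0.000752 in the larger piece, above 0 there in 1 of 4. For the other measures the slopes on DZ and on Medulla neighbours were mixed between sections.

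**Figure D4:**
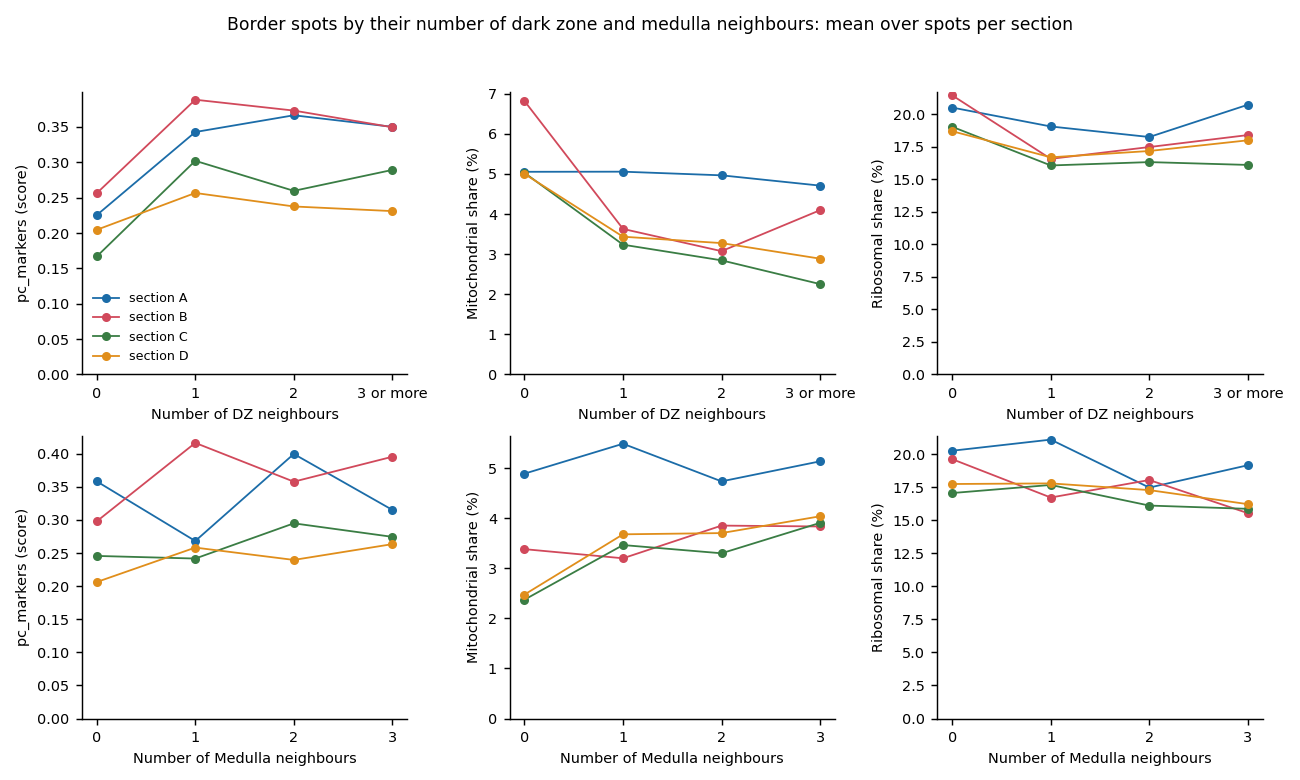
Mean per section of pc_markers, the mitochondrial share and the ribosomal share of border spots, by number of DZ neighbours (top) and Medulla neighbours (bottom). Spots with no DZ neighbour have the lowest pc_markers in each section, and with 1 or more the lines are flat or cross; some points rest on few spots, 1 in section A with no DZ neighbour and 2 in section A with 3 or more.

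The 38 border spots that touch the light zone (2, 6, 9 and 21 in sections A to D) were the low end of the border in pc_markers. Their mean was 0.222, 0.216, 0.167 and 0.217, against 0.356, 0.386, 0.289 and 0.252 in the 197 others, a difference of -0.115 ± 0.0575 with 4 of 4 sections below 0. Their mitochondrial share was higher, at 6.84%, 6.03%, 5.13% and 4.38% against 4.88%, 3.37%, 2.91% and 3.25%, a difference of 1.99 ± 0.642 percentage points. The ribosomal share was higher by 2.75 ± 1.42 percentage points, and genes, Mo_GC_vs_Mem and Mo_Nr4a1Inmt_SC differed by -262 ± 238, -0.00934 ± 0.00559 and -0.00587 ± 0.00370. Each of these had the same direction in 4 of 4 sections. On residuals of log10 UMIs the difference in Mo_GC_vs_Mem was 0.00825. No test was made, since section A holds 2 such spots. Light zone neighbours went with lower pc_markers at the other borders too. Per LZ neighbour, its slope was -0.106 here, -0.0198 in GC_T Border and -0.0213 in GC_B Border. Each was below 0 in 4 of 4 sections. In GC_B Border the slopes of the mitochondrial and ribosomal shares were 0.441 and 0.514 percentage points, above 0 in 4 of 4. In GC_T Border they were 0.0781 and -0.327, above 0 in 2 and 1 of 4.

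The surroundings of these 38 spots differed as well. Border spots with LZ contact had 0.579 DZ neighbours on average against 1.57 in the others, 1.84 against 1.64 Medulla neighbours, 0.658 against 0.305 GC_B Border neighbours and 0.105 against 0.497 T zone neighbours. In sections A and B all of them lay in the larger piece. Within the larger piece (20 against 52 spots) the difference in pc_markers was -0.0795 ± 0.0598, with 0.00224 in section D, and within the smaller piece, which had such spots in C and D only, it was -0.0855. The mitochondrial difference was 1.66 ± 0.752 in the larger piece and 1.01 in the smaller. At exactly 2 Medulla neighbours, where 2 sections held enough spots, pc_markers differed by -0.0492 and had opposite directions in them. The part of these neighbours in the difference was not tested.

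**Figure D5:**
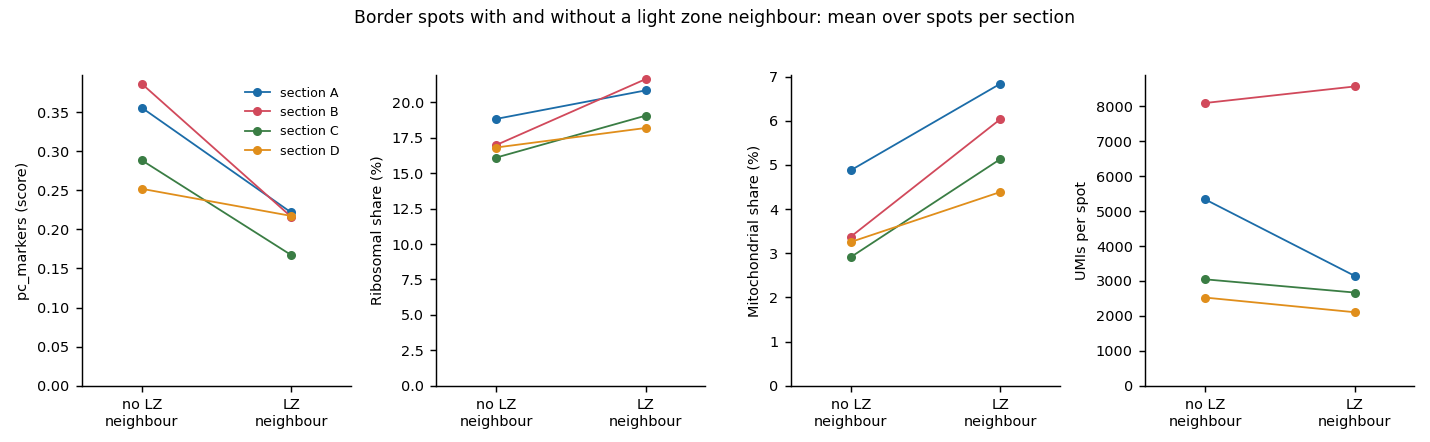
Mean per section of pc_markers, the ribosomal share, the mitochondrial share and UMIs per spot in border spots without (197 spots) and with (38 spots) a light zone neighbour, joined by section. The score pc_markers is lower and both shares are higher with a light zone neighbour in each section, while UMIs are lower in 3 sections and higher in section B.

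Neighbours on the T or B side also went with a lower plasma cell marker score. The 145 border spots with such a neighbour had a pc_markers of 0.293 ± 0.0578 against 0.340 ± 0.0808 in the 90 without, a difference of -0.0471 ± 0.0300, below 0 in 4 of 4 sections. Their ribosomal share was higher by 1.92 ± 0.959 percentage points and their genes by 203 ± 162, in 4 of 4 sections each. The mitochondrial share differed by 0.00445 ± 0.315, with no shared direction.

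The 2 tissue pieces differed in the border itself. In the smaller piece pc_markers was 0.361, 0.399, 0.293 and 0.265 in sections A to D, and in the larger piece 0.331, 0.297, 0.204 and 0.193. The difference was 0.0732 ± 0.0313, above 0 in 4 of 4 sections, and 0.0586 ± 0.0324 without the spots touching the light zone. The mitochondrial share differed by -1.23 ± 0.967 percentage points, below 0 in 4 of 4 sections, and by -0.866 ± 0.764 without those spots. Mo_Nr4a1_SC, Mo_Inmt_SC and Mo_Nr4a1Inmt_SC were higher there by 0.00591 ± 0.00206, 0.00295 ± 0.00131 and 0.00283 ± 0.000948 in 4 of 4 sections, and in 3, 3 and 3 sections without the light zone contacts. Whether the pieces are parts of the same node was not given in the labels.

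Over the spots of the border, pc_markers ran against both RNA shares and with depth. Spearman's rho between pc_markers and the ribosomal share was -0.677, -0.721, -0.722 and -0.449 in sections A to D (31, 64, 59 and 81 spots), a mean of -0.642 ± 0.131. It was -0.636 ± 0.105 in Medulla, -0.214 ± 0.285 in GC_T Border and -0.124 ± 0.141 in GC_B Border. With the mitochondrial share rho was -0.463 ± 0.253 in the border and -0.331 ± 0.0802 in Medulla. In GC_B Border it was -0.149 ± 0.0902, below 0 in 4 of 4 sections, and in GC_T Border 0.184 ± 0.263, above 0 in 3 of 4. With UMIs it was 0.497 ± 0.166 in the border against 0.280 ± 0.124 in Medulla, 0.150 ± 0.292 in GC_T Border and 0.0114 ± 0.134 in GC_B Border. The mitochondrial and ribosomal shares ran together in the border at 0.494 ± 0.0494. These are descriptions: the points share a library, depth and neighbouring tissue, and each share is a part of the same UMIs from which the scores were made.

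Among the scores, Mo_Inmt_SC and Mo_Nr4a1Inmt_SC were the closest pair in the border, with a rho of 0.710 ± 0.0718, followed by Mo_Nr4a1_SC and Mo_Nr4a1Inmt_SC with 0.557 ± 0.0229. Of the SC scores, Mo_Nr4a1_SC was the one that ran with pc_markers in 4 of 4 sections of the border, at 0.315 ± 0.121, and the other 3 had section B below 0. In Medulla and GC_T Border all 4 ran with pc_markers in 4 of 4 sections, Mo_Nr4a1_SC at 0.292 and 0.316. In GC_B Border Mo_Nr4a1_SC stood at 0.0643, above 0 in 3 of 4. The germinal centre score ran with UMIs at 0.620 ± 0.116 in the border. That rho was 0.764 in Medulla, 0.668 in GC_T Border and 0.715 in GC_B Border. Overlap between the gene lists behind these scores was not analysed here.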

How the data were processed

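RNA of 4 serial sections was measured on 1 Visium slide. Per the submitters' processing notes, the tools were Space Ranger 1.3.1 and Seurat 4.2.1, with mm10 as the mouse build. Spot filter, clustering settings, the naming of regions and the gene lists of the scores were not stated in the labels. The authors deposited 1 table of spots, with raw counts (UMIs and genes per spot), the percent of counts from mitochondrial and ribosomal genes, and 6 scores. All were used as deposited. Array positions were checked against the deposited alignment files, with a largest gap of 0.498 pixels to the section's own file and of at least 120.7 to any other.

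Means over spots, or least squares slopes over border spots, were formed in each section and the 4 values were given as mean ± SD. Differences and slopes in genes per spot, shares and scores thus have the section as their unit. Spearman's rho, SDs over spots and the variance between stretches were computed over the spots of each section and are descriptions. The sections were then tested with a two-sided sign-flip permutation test, exact over the 16 sign assignments, with Benjamini-Hochberg adjustment over 50 tests. Stretches are connected border spots, and tissue pieces connected spots of any region. The step, the slopes in a fit with both neighbour counts and the LZ contact difference were first tested on simulated data with planted effects. The other statistics were not tested in this way. Python 3.11.15, numpy 2.4.6, pandas 2.3.3 and scipy 1.17.1 were used.

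The members, lists and tests were chosen with earlier results of these data known. The rule for named genes was to name every deposited column where the table holds no single genes. The plasma cell marker list was not used for that reason. Alternatives were a minimum of 1000 UMIs per spot, residuals of log10 UMIs, percentile ranks, medians, other reference spots, each tissue piece and leaving out each section.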

Additional observations from a re-analysis of the deposited data

Results flagged for a closer look

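Of 80 results on the border, 2 held a section at a distance from the remaining 3. By chance about 1 in 20 sets of 4 values would be picked out. For the mitochondrial share, the step at the medulla border minus the step at the T border was -0.781 percentage points in section C, with the others from -0.522 to -0.505. For Mo_Nr4a1_SC, the slope per DZ neighbour was -0.00524 in section B, with the others from 0.000199 to 0.000710.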

How the results depend on the processing

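The spread of these values is that of 4 serial sections, and spots are shallow in C and D. The smallest exact p cannot pass 0.05 under any alternative, so direction is what was compared. Beside leaving out a section, 182 alternatives were run for the 22 tested results with a shared direction. Of these, 139 kept that direction in every section, 34 kept it in the mean but not in every section, and 9 turned the mean. No paired analysis was possible beyond the differences within each section, which the test already uses, because there is 1 group of sections. Residuals were not run for UMIs and genes, and the smaller piece held spots with LZ contact in 2 sections only. Selections of spots by T or B side, LZ or exactly 2 Medulla neighbours, and pieces for LZ contact, were chosen after seeing the data.

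Step to Medulla. Without T or B side neighbours UMIs were -86.7 and genes -88.4. The ribosomal share was 0.0907 with at least 1000 UMIs, 0.470 with medians, 0.451 against all Medulla, 0.298 with 6 neighbours, 0.255 in the smaller piece, and -0.367 to 0.416 leaving out a section. In the larger piece pc_markers was -0.00231. It was 0.0413 without T or B side neighbours, 0.0175 with medians and 0.0289 against all Medulla, where it was above 0 in 4 of 4 sections.

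Step difference to GC_T Border. For pc_markers it was 0.00209 with medians and 0.00555 against all parent spots.

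Step difference to GC_B Border. The mitochondrial share was 0.221 with medians, 0.210 in the smaller piece, and -0.270 to 0.0935 leaving out a section. With 6 neighbours UMIs were -51.6, genes -18.8 and pc_markers -0.000868. In the larger piece pc_markers was -0.00109 and Mo_CD34_SC 0.00151. On residuals Mo_GC_vs_Mem was -0.00125.

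Slope per DZ neighbour. The ribosomal share was 1.21 as 3 or more minus 1 neighbour, 0.629 in the smaller piece and 0.291 without LZ contact. In the same settings pc_markers was -0.0175, -0.00916 and -0.00238. In the larger piece UMIs were -83.1, genes -37.5, Mo_GC_vs_Mem -0.000795, Mo_Nr4a1_SC 0.00418, Mo_Inmt_SC 0.00174, Mo_Nr4a1Inmt_SC 0.000448 and Mo_CD34_SC 0.00121. With Medulla neighbours in the fit the 4 SC scores, in that order, were 0.00148, 0.00174, 0.000255 and 0.00145. Without T or B side neighbours the first 3 were 0.00121, 0.00201 and 0.00305. Mo_Nr4a1_SC was 0.000222 with at least 1000 UMIs. Mo_CD34_SC was 7.68e-05 as 3 or more minus 1 neighbour, 0.000278 with 6 neighbours and 0.000206 on residuals. Leaving out a section gave -0.00152 to 0.000467 for Mo_Nr4a1_SC, -0.00213 to 0.000219 for Mo_Nr4a1Inmt_SC and -0.00180 to 0.000608 for Mo_CD34_SC.

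Slope per Medulla neighbour. In the larger piece the ribosomal share was 0.0361, pc_markers -0.0104 and Mo_GC_vs_Mem 0.00190.

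Level against GC_T Border. On residuals Mo_GC_vs_Mem was 0.00920, Mo_Inmt_SC 0.00977, Mo_Nr4a1Inmt_SC 0.00577 and Mo_CD34_SC -0.000792. The mitochondrial share was 0.847 in the larger and -0.246 in the smaller piece, where genes were -597.

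Level against GC_B Border. On residuals the ribosomal share was -3.60, Mo_GC_vs_Mem -0.0111 and the SC scores, in the order above, 0.00870, 0.00884, 0.00498 and 0.0149. In the larger piece the mitochondrial share was 0.152 and pc_markers 0.0987.

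LZ contact. Mo_GC_vs_Mem was -0.00210 with at least 1000 UMIs, 0.00825 on residuals, -0.0161 in the smaller piece and 0.00477 at exactly 2 Medulla neighbours. At the latter genes were 64.3, pc_markers -0.0492, Mo_Nr4a1_SC 0.00246 and Mo_Nr4a1Inmt_SC 0.00505. On residuals Mo_Nr4a1Inmt_SC was -0.0115 and Mo_CD34_SC -0.00574. In the smaller piece the mitochondrial share was 1.01, Mo_Nr4a1_SC 0.00192 and Mo_Inmt_SC 0.00202.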
